A study of Mus musculus with 17 samples.

Results

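The report follows 10 genes of the mammary luminal lineage through 17 mouse mammary tumors: the hormone receptors Esr1, Pgr and Prlr, the estrogen-induced cofactor gene Greb1, the transcription factors Elf5, Foxa1 and Gata3, the transcriptional coregulator Cited1, the receptor tyrosine kinase Kit and the secreted ligand Tnfsf11 (RANKL). They were chosen by name, from the gene name or RefSeq accession of the array's probes, and are 10 of the 28786 genes and 15 of the 41174 probes that were measured. Tumors arose in FVB mice that carried a p75 or a p110 CUX1 transgene, both shortened forms of the CUX1 transcription factor, under regulatory sequences of the mouse mammary tumor virus (MMTV), so that every tumor carried a CUX1 transgene and no normal gland or non-transgenic tumor was compared. The age of the mice is not given in the sources used here. Epithelial cells were cut out by laser-capture microdissection, and their RNA was amplified in 2 rounds and hybridized with a universal mouse reference RNA on dye-swapped pairs of 2-color arrays. Each value below is the log2 ratio of tumor over reference, averaged over the arrays of a tumor, which makes it a relative level of 1 gene and no scale on which genes can be compared with each other. A gene is called measured in a tumor where all arrays of that tumor read its tumor color well above background.

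The 9 p75 tumors were 4 adenosquamous carcinomas, 3 solid carcinomas, 1 adenocarcinoma and 1 adenomyoepithelioma, and the 8 p110 tumors were 6 solid carcinomas, 1 adenoma and 1 adenomyoepithelioma. The study drew 3 clusters from the expression of 19 Wnt genes on these same arrays. GEO's labels do not give the cluster of a tumor, which was read from the tumor names under the study's clustered heat map. High-Wnt tumors were p75-47, p75-80 and p75-94, all adenosquamous, with the solid carcinoma p110-225 and the adenomyoepithelioma p110-374 (n = 5). Low-Wnt tumors were the adenosquamous carcinoma p75-101 and the solid carcinomas p75-150, p75-534, p110-143, p110-314, p110-360 and p110-416 (n = 7). The other 5 were medium-Wnt, namely p75-90, p75-129, p75-216, p110-98 and p110-121. Since high-Wnt tumors were mostly adenosquamous and low-Wnt tumors mostly solid carcinomas, differences between these clusters cannot be fully told apart from differences between histological types. None of the 10 genes is a Wnt gene, so the clusters were not drawn from them.

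Luminal cells of the mammary gland fall into hormone-sensing cells, which carry the estrogen, progesterone and prolactin receptors and depend on Foxa1 and Gata3 for their identity, and secretory progenitor cells, which carry Kit and Elf5. In the normal gland, estrogen acting through Esr1 induces Pgr, and progesterone makes the sensing cells secrete RANKL, which together with Wnt ligands acts on neighboring cells. Prolactin acts through its receptor, Jak2 and Stat5 to drive alveolar differentiation, in which Elf5 takes part.

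What each array value reads is a 60-base probe. The probes on which the results turn are given 5′ to 3′ in lower case, those near the end of a transcript by their first 30 bases, with positions in the mouse mm7 build as the scanner files list them. The Elf5 probe lies at chr2:103301588-103301647 (+), the Kit probe at chr5:75074515-75074574 (+) and the brightest Esr1 probe at chr10:5343241-5343300 (-).
Elf5: tgtctagtgaccggcactgaatagcaatgc
Kit: tgtggtcatgtacgagactgtcaccagtta
Esr1: ttttttgtagacgtttcaaactaccgtgtc
Prlr has 3 probes, shown because they gave different answers. From upstream to downstream on the + strand of chromosome 15 they lie at chr15:10387524-10387583, where the probe reads the segment that codes for the receptor's passage through the membrane, at chr15:10394904-10394963 and at chr15:10398442-10398501. They are called the membrane-segment, middle and distal probe.
Prlr membrane-segment: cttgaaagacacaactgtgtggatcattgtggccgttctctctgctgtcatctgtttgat
Prlr middle: gactttccattctgaaaacaatgttgattc
Prlr distal: tctccatccactttgtagggacaacatgga
The probe with the widest range among the hormone-sensing genes and a probe that read nothing above background are Cited1 at chrX:97574905-97574964 (-) and Pgr at chr9:8987004-8987063 (+).
Cited1: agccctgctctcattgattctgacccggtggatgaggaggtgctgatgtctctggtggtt
Pgr: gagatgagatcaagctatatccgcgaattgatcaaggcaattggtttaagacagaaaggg
No annotation of mm7 was used here, so exons and introns are not given. Gene and probe were paired by the array's design.

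The genes fell into 3 kinds by detection. Elf5, Gata3 and Cited1 were measured in 16 of 17 tumors, Prlr in 15 (distal probe) and Kit in 14. Esr1 was measured in 7 tumors, Foxa1 in 2 and Tnfsf11 in 1, the adenosquamous carcinoma p75-101. Pgr and Greb1 were measured in none, by both probes of Pgr. The reference was well above background on 38 of 38 arrays for Gata3 and Cited1 but on 12 for Elf5, 2 for Kit and 1 for the distal Prlr probe, so that ratios of Elf5, Kit and Prlr were mostly taken against a reference near its background. No spot of a member was saturated.

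**Figure D1:**
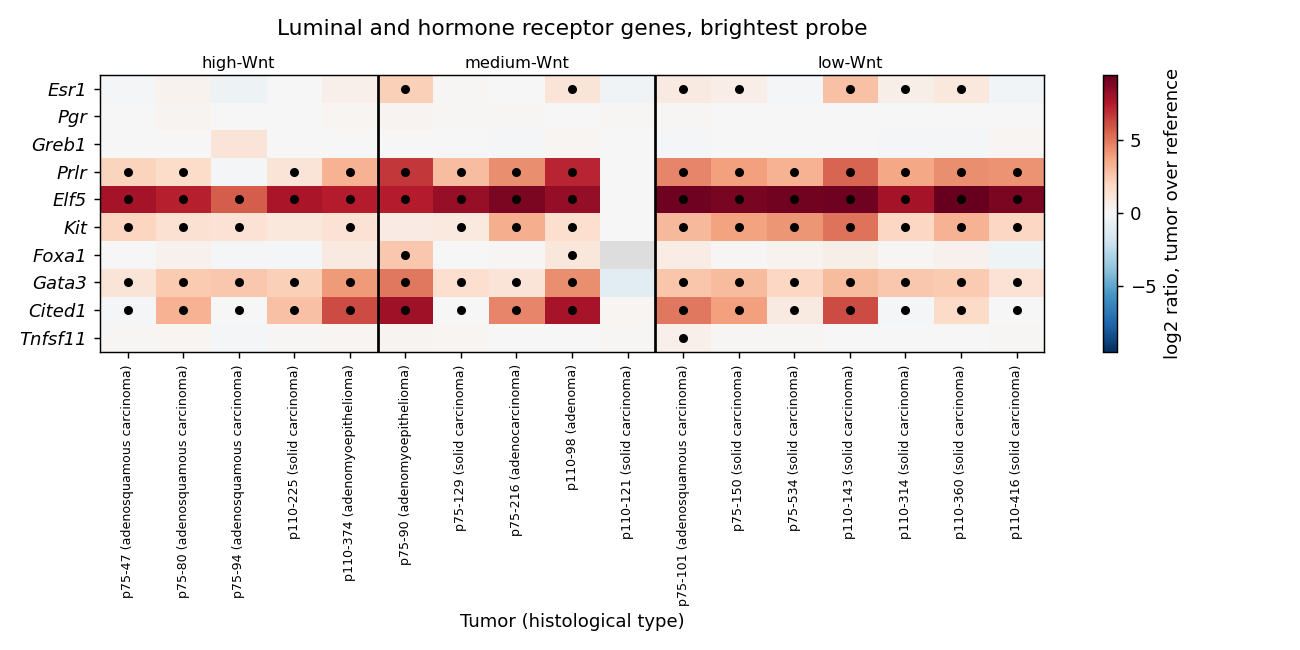
Log2 ratio of tumor over reference (color) for the brightest probe of each gene (rows) in 17 tumors (columns), in blocks by Wnt cluster (high, medium and low), with black dots where the gene was measured and a gray cell where no value was left. Elf5 is dark in 16 tumors and near 0 in p110-121, and the rows of Pgr and Greb1 hold no dot.

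Tumor p110-121 is labeled a solid carcinoma by GEO, while the study's figure legend, which lists tumors by type, does not name it. It stood apart from the rest and went against the epithelial label. Elf5 was 0.07, Kit -0.05, Prlr (distal probe) 0.03 and Gata3 -1.07 there, none of them measured, while the membrane-segment probe of Prlr was measured at 0.80. The keratin genes of luminal epithelium, Krt8 and Krt18, were -4.24 and -4.82 against 0.18 to 2.91 and -0.04 to 3.20 in the other 16 tumors. The macrophage genes Lyz2 and Csf1r were 7.29 and 5.32 against highest values of 5.10 and 1.08 elsewhere, and the mean over a list of leukocyte markers was 3.41 against -1.33 to 0.60. Differences between groups that hold this tumor are given with and without it. The p110 tumors p110-98, p110-225 and p110-374, had a tumor color that was weak beside the reference, by 8.23 to 11.5 times at the 95th percentile of signal against 0.65 to 3.95 times in the rest. The arrays of p75 and of p110 tumors were scanned in different years, so that transgene and scan year cannot be told apart. As in any bulk sample, fewer cells of a type and less RNA per cell cannot be told apart either.

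Elf5, an ETS-family factor that specifies the secretory fate, was high in nearly every tumor and yet divided the Wnt clusters. It was 7.89, 7.35, 5.74, 7.73 and 7.48 in the high-Wnt tumors p75-47, p75-80, p75-94, p110-225 and p110-374. The low-Wnt tumors p75-101, p75-150, p75-534, p110-143, p110-314, p110-360 and p110-416 had 9.26, 9.05, 9.13, 9.27, 7.91, 9.45 and 8.95. Every low-Wnt tumor lay above every high-Wnt tumor, although p110-314 and p75-47 nearly met. The 4 measured medium-Wnt tumors had 7.43 to 8.91, between or within the ranges of the other clusters. The means were 7.24 ± 0.87 (SD, n = 5) and 9.00 ± 0.51 (SD, n = 7), and the difference of -1.76 (limma SE 1.15) had the smallest p that an exact two-sided permutation test allows here, 0.00126. Across all genes it did not pass (limma adjusted p = 0.581).

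By the distal probe Prlr, too, was lower in every high-Wnt than in every low-Wnt tumor. The prolactin receptor binds prolactin at the cell surface, and its long form signals through Stat5. High-Wnt tumors had 2.11 (p75-47), 1.72 (p75-80), -0.18 (p75-94, not measured), 1.24 (p110-225) and 3.29 (p110-374). Low-Wnt tumors had 4.66, 3.88, 3.33, 5.49, 3.70, 4.44 and 4.28 in p75-101, p75-150, p75-534, p110-143, p110-314, p110-360 and p110-416. The nearest were p110-374 and p75-534. The highest values of all lay in the medium-Wnt cluster, 7.27 in the adenoma p110-98 and 6.75 in the adenomyoepithelioma p75-90. The high-Wnt mean was 1.64 ± 1.27 (SD, n = 5) and the low-Wnt mean 4.26 ± 0.71 (SD, n = 7), which lie -2.62 apart (limma SE 1.0, adjusted p = 0.297, exact permutation p = 0.00126).

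Kit, the receptor of stem cell factor and a mark of luminal progenitors, overlapped between the clusters. High-Wnt values were 2.05, 1.43, 1.40, 1.03 (p110-225, not measured) and 1.39, against 3.1, 3.80, 4.18, 5.16, 1.98, 3.34 and 1.94 in the low-Wnt tumors, in the order given for Prlr. Only p75-47 exceeded a low-Wnt tumor, namely p110-314 and p110-416. The means were 1.46 ± 0.37 (SD, n = 5) and 3.36 ± 1.16 (SD, n = 7), with a difference of -1.90 (limma SE 0.60, adjusted p = 0.197, exact permutation p = 0.00884). Among medium-Wnt tumors the adenocarcinoma p75-216 had 3.49 and the other measured tumors 0.90 and 1.59.

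**Figure D2:**
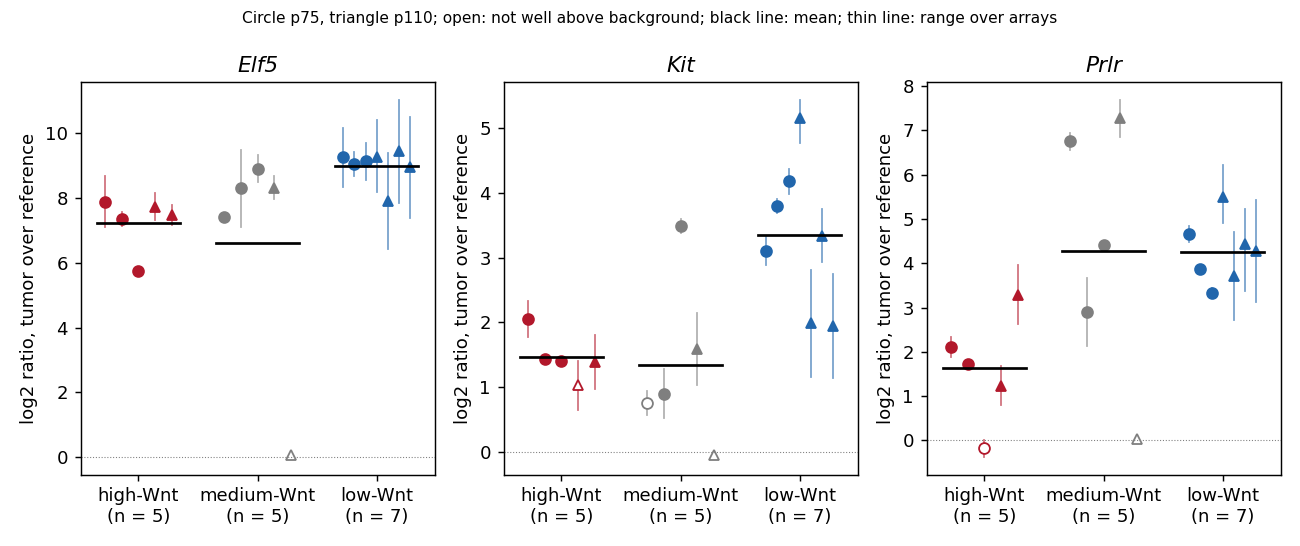
Log2 ratio of tumor over reference (y axis) of Elf5, Kit and Prlr (distal probe) in each tumor, by Wnt cluster, with circles for p75, triangles for p110, open symbols where the gene was not measured, thin lines for the range over arrays and black lines for cluster means. For Elf5 and Prlr the 5 high-Wnt tumors all lie below the 7 low-Wnt tumors, and for Kit p75-47 overlaps the 2 lowest low-Wnt tumors.

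Over all genes, limma called 67 of 28786 between high-Wnt and low-Wnt tumors (0.233%), and 0 of the 10 members. At an unadjusted p under 0.05, 2 members were lower in high-Wnt tumors (Kit and Prlr) and none higher, beside 12% of all genes in either direction. Elf5 and Prlr were the 2 members that were lower without overlap, which held for 0.702% of all genes and for 1.46% of the 11312 genes measured in at least 9 tumors. Fitted without the medium-Wnt cluster, where 0.497% of genes were called, the adjusted p from limma was 0.0596 for Prlr, 0.0632 for Elf5 and 0.133 for Kit. Without p110-121, which lies in neither cluster but enters the estimate of spread, 0.399% of genes were called, the SE of the Elf5 difference was 0.37 instead of 1.15 and its limma adjusted p 0.0544, with 0.133 for Prlr and 0.164 for Kit. Without the medium-Wnt cluster and the dim tumors p110-225 and p110-374, 0.0695% of genes were called. No fit took a member past the threshold of 0.05.

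The 3 differences had the same sign within each transgene. Among p75 tumors (3 against 3) they were -2.15 for Elf5, -2.74 for Prlr and -2.07 for Kit, none overlapping, as for 7.37% of all genes, with an exact permutation p of 0.1, the smallest that this number allows. Among p110 tumors (2 against 4) they were -1.29, -2.22 and -1.89, again without overlap, as for 12.1% of all genes, with exact permutation p of 0.133, 0.0667 and 0.133. They also depended on how the reference and the dyes were handled. In the tumor color alone, without the reference, the difference was -2.38 for Elf5 (exact permutation p = 0.00253) but -1.16 for Prlr (exact permutation p = 0.0846) and -0.72 for Kit (exact permutation p = 0.192). Arrays with the tumor in Cy5 gave -2.72 for Elf5 (exact permutation p = 0.00126) and those with the tumor in Cy3 gave -0.81 with overlap (exact permutation p = 0.135), where the Elf5 ratio was on average 1.01 higher in Cy5 than in Cy3 over the tumors. With the signals processed by Feature Extraction, Elf5 was -0.71 (exact permutation p = 0.42), Prlr -3.38 (exact permutation p = 0.00253) and Kit -2.54 (exact permutation p = 0.00379). High-Wnt and low-Wnt tumors overlapped for Elf5 with these signals, with median centering, in the tumor color alone and on the Cy3 arrays. For Prlr (distal probe) they overlapped in the same settings except median centering.

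**Figure D3:**
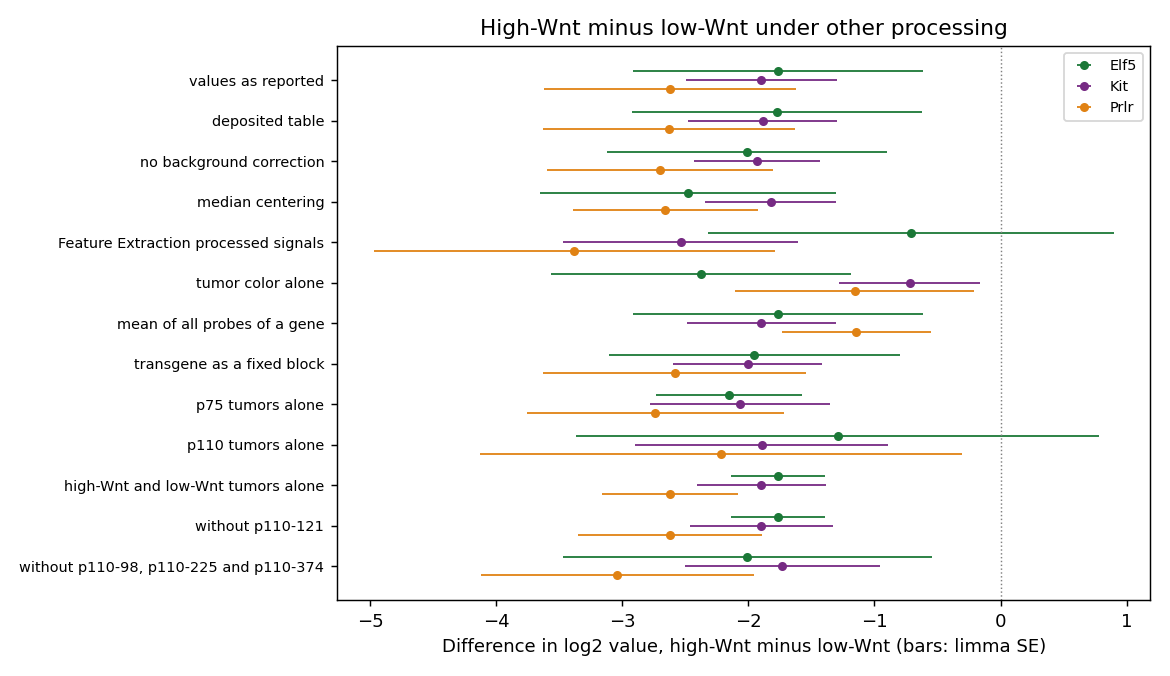
High-Wnt minus low-Wnt difference in log2 value (x axis, bars limma SE) for Elf5, Kit and Prlr under the processing named on the y axis. All points lie below 0, from -3.38 (Prlr, processed signals) to -0.71 (Elf5, processed signals).

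Marker lists of other cell types were read beside these values. The mean over a list of basal and myoepithelial markers was 2.03 to 4.46 in high-Wnt and -1.12 to 2.81 in low-Wnt tumors, and that over squamous markers -0.24 to 2.05 and -0.57 to -0.35. General luminal markers overlapped, at 1.27 to 2.66 and 1.63 to 2.33. Kit also marks mast cells, of whose 6 other listed markers 0 were measured in at least 9 tumors, and their mean was -0.01 to 2.86 in high-Wnt and 0.01 to 1.42 in low-Wnt tumors, highest in p110-225. Adipocyte markers had means of 0.69 to 5.51 and 0.66 to 5.79, and leukocyte markers -0.45 to 0.39 and -1.15 to 0.60. Median differences, high-Wnt minus low-Wnt, were 1.44 over 8 basal, 0.77 over 8 squamous, -0.11 over 10 general luminal, -0.42 over 6 luminal progenitor, 0.65 over 4 hormone-sensing luminal and -0.08 over the 10 member genes, beside 0.02 over all genes. Over markers of other cells they were 0.78 for 6 fibroblast, -0.55 for 4 endothelial, -1.33 for 5 adipocyte, 0.21 for 6 mast cell, 0.03 for 7 T cell and 0.04 for 5 other leukocyte genes. Without the medium-Wnt cluster and the dim tumors p110-225 and p110-374, the medians were 0.32 for basal, 1.14 for squamous, -0.27 for general luminal, -0.52 for luminal progenitor, 0.51 for hormone-sensing luminal and -0.60 for the member genes. They were then 0.55 for fibroblast, -0.43 for endothelial, -2.33 for adipocyte, -0.38 for mast cell, -0.13 for T cell and -0.005 for other leukocyte genes, so that the mast cell, T cell and leukocyte medians turned sign. These medians also hold genes that were measured in few or no tumors. Measured in at least 9 tumors were 8 of 8 basal, 3 of 8 squamous and 8 of 10 general luminal genes. The same held for 4 of 6 luminal progenitor, 2 of 4 hormone-sensing luminal and 5 of 10 member genes. With all tumors in the fit 0 genes of these lists were called. Cldn7, a tight junction gene of the general luminal list, was 1.24 to 2.23 in high-Wnt and 2.71 to 3.85 in low-Wnt tumors, a gap of -1.34 between means. Its limma adjusted p was 0.117 with all tumors, but 0.0198 without p110-121 and 0.0318 without the medium-Wnt cluster, and 0.11 when the dim tumors p110-225 and p110-374 were left out as well, where the difference was -1.19. The other 9 genes of that list lay on both sides, from -0.96 for Cdh1 to 1.87 for the keratin gene Krt7 (limma adjusted p = 0.472), with 0.52 for Krt18, 0.15 for Krt8 and -0.43 for Krt19, and were called in none of these fits. Without the medium-Wnt cluster and the dim tumors Krt18 was -0.12, Krt8 -0.43, Krt19 -1.56 and Krt7 1.32. The part of these cells in the values of Elf5, Prlr and Kit was not tested.

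The Prlr probes did not give one answer. The middle probe was lower in high-Wnt tumors by -1.26 on the log2 scale (exact permutation p = 0.0593), and over the 17 tumors it followed the distal probe with r = 0.742. The membrane-segment probe was measured in all 17 tumors with the reference above background on all 38 arrays, ranged from 0.12 to 2.85 and followed the distal probe with r = 0.299. High-Wnt minus low-Wnt it gave 0.45 (limma SE 0.37, adjusted p over all probes = 0.682, exact permutation p = 0.17), and in the tumor color alone it was higher in high-Wnt tumors by 1.08 (exact permutation p = 0.00505). Without the dim tumors p110-225 and p110-374 the ratio differed by -0.06 (exact permutation p = 0.717), and with median centering by -0.08. Among p75 tumors it differed by 0.01 and among p110 tumors by 1.15 without overlap (exact permutation p = 0.0667). In the tumor color alone the p75 high-Wnt tumors read 7.84 to 9.00 and the p75 low-Wnt tumors 7.56 to 7.79, so that the ratio's direction depended on those 2 tumors and on the normalization while that in the tumor color was also seen without them. These correlations describe probes that share arrays. With the mean of all 3 probes the Prlr difference was -1.14. Which transcripts each probe reads was not tested.

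**Figure D4:**
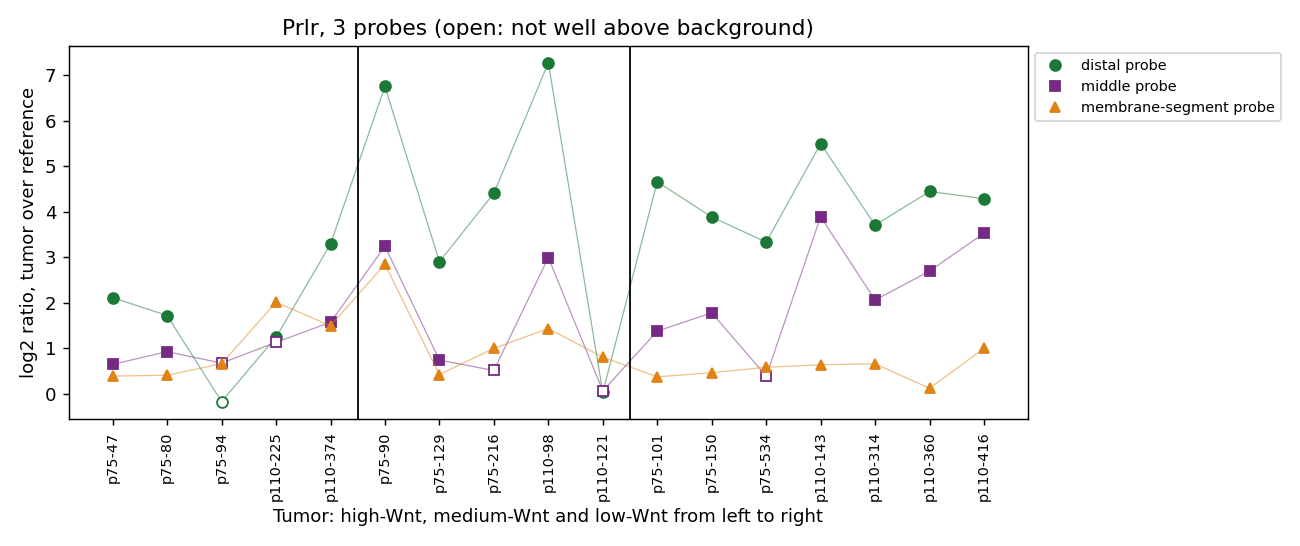
Log2 ratio of tumor over reference (y axis) of the 3 Prlr probes in each of 17 tumors (x axis, in blocks from the high-Wnt cluster on the left to the low-Wnt cluster on the right), open where not measured. The distal probe reaches 7.27 in p110-98 and the membrane-segment probe stays between 0.12 and 2.85.

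Esr1, Foxa1, Gata3 and Cited1, the genes tied to hormone-sensing cells, were highest in single tumors of several clusters. Esr1, the estrogen receptor, was measured at 2.75 (p110-143), 2.30 (p75-90), 1.24 (p110-98), 1.03 (p110-360), 0.85 (p75-101), 0.60 (p75-150) and 0.54 (p110-314). In the other 10 tumors this probe read -0.47 to 0.47 and was not measured. Measured tumors were 0 of 5 high-Wnt, 2 of 5 medium-Wnt and 5 of 7 low-Wnt. Over all probes 21.5% to 55% were well above background in high-Wnt and 36.4% to 55.2% in low-Wnt tumors, and in the tumor color p110-374, not measured, read 7.84 for Esr1 against 7.35 to 7.50 in the measured low-Wnt tumors p75-150, p110-314 and p110-360. The high-Wnt minus low-Wnt difference was -0.73 (limma SE 0.51, adjusted p = 0.61, exact permutation p = 0.149). It is no measured fold, since Esr1 stood well above background on 1 of 10 high-Wnt arrays, against 14 of 18 low-Wnt arrays. The second Esr1 probe was measured in 1 tumor, the medium-Wnt solid carcinoma p75-129, one of those 10, at -0.06.

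Foxa1, the pioneer factor that opens chromatin for the estrogen receptor, was measured only in the adenomyoepithelioma p75-90 (2.56) and the adenoma p110-98 (1.08). The other adenomyoepithelioma, p110-374, had 0.84 and was not measured, and the remaining tumors with a value lay between -0.43 and 0.68. No Foxa1 value was left for p110-121, since its spots were outliers on both arrays, and its fits hold 16 tumors. The deposited table, which keeps those spots, has 1.60 there, which would be the second highest value. Gata3, which maintains luminal differentiation, was highest in the same tumors, with 5.03 (p75-90), 4.43 (p110-98) and 4.05 (p110-374). The 13 other measured tumors followed from 1.21 in p75-47 to 3.02 in p75-150 with solid and adenosquamous carcinomas intermixed.

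Cited1, a coregulator that binds the estrogen receptor, had the widest spread of the members, with an SD of 2.93 between tumors and 0.42 between the arrays of a tumor. The highest values were 8.03 (p75-90), 7.80 (p110-98), 6.17 (p110-143) and 6.16 (p110-374). Next came 5.04 (p75-101), 4.66 (p75-216), 3.92 (p75-150), 3.29 (p75-80), 2.81 (p110-225), 1.82 (p110-360) and 0.85 (p75-534). In p75-129, p75-94, p110-416, p75-47 and p110-314 it was -0.19 to 0.02, near the level in the reference. Both adenomyoepitheliomas and the adenoma were thus among the 4 highest, and solid and adenosquamous carcinomas covered the range from the lowest to above 5. In the tumor color alone p75-90, p110-98 and p110-374 were the 3 highest tumors for Foxa1, Gata3 and Cited1. Adenomyoepitheliomas (n = 2) and the adenoma (n = 1) were not compared with the other types by a test, and p110-98 and p110-374 are among the tumors with a weak tumor color.

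**Figure D5:**
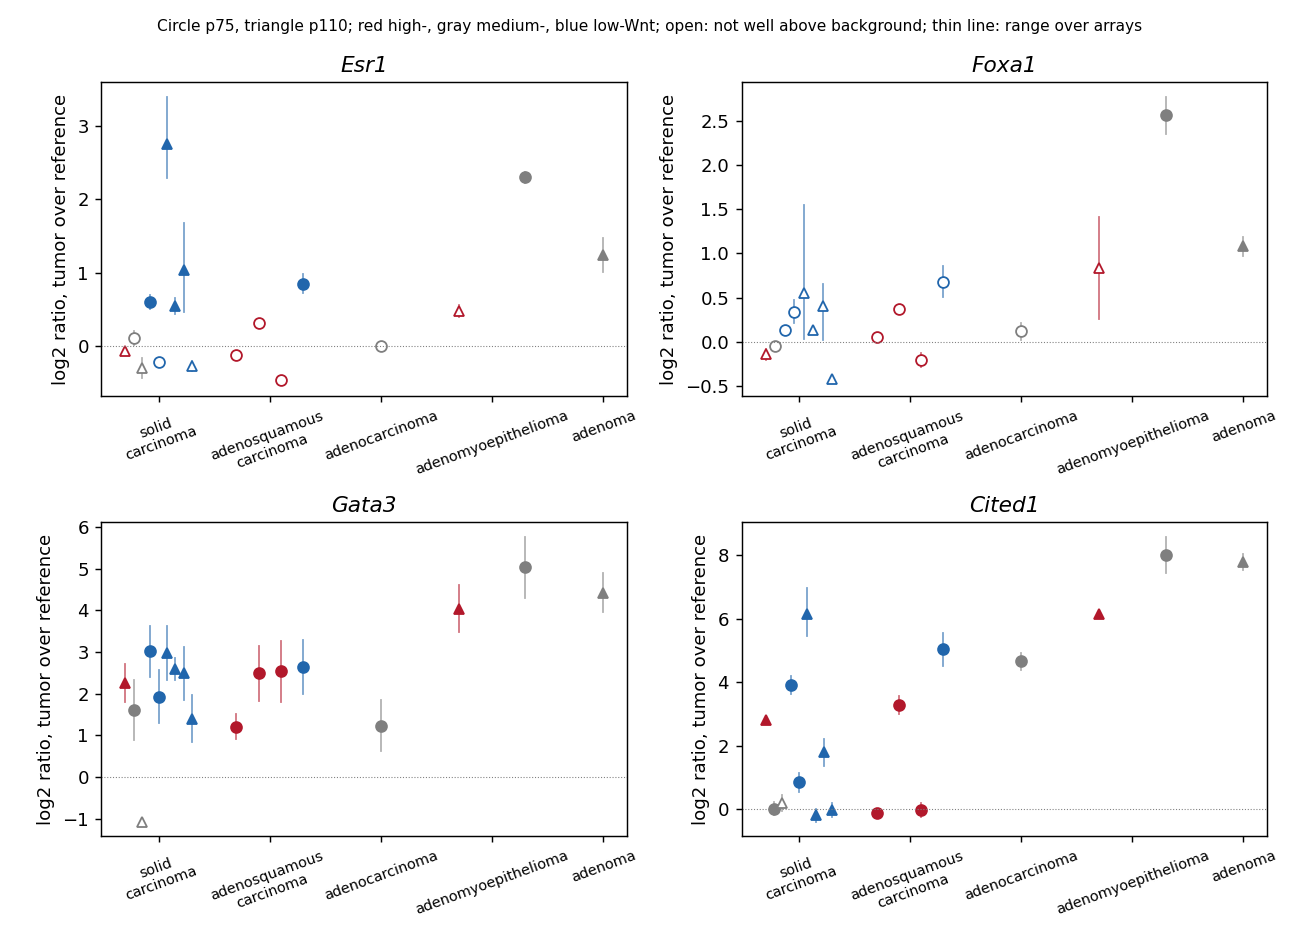
Log2 ratio of tumor over reference (y axis) of Esr1, Foxa1, Gata3 and Cited1 in each tumor by histological type (x axis), with circles for p75, triangles for p110, red, gray and blue for the high, medium and low Wnt cluster, open symbols where not measured and thin lines for the range over arrays. Gata3 is 4.05 to 5.03 in the adenomyoepitheliomas and the adenoma and at most 3.02 elsewhere.

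No member passed the test between histological types or transgenes. Between 4 adenosquamous and 9 solid carcinomas limma called 0 of 28786 genes (0%) and 0 members, with 0 members and 5.5% of all genes at an unadjusted p under 0.05. The differences, adenosquamous minus solid, were -1.18 for Prlr (limma SE 1.05, adjusted p = 0.881), -0.48 for Kit, -0.32 for Esr1, -0.20 for Elf5, 0.31 for Gata3 and 0.31 for Cited1, with exact permutation p of at least 0.287. Without p110-121 they were -1.58 for Prlr, -0.79 for Kit, -0.42 for Esr1, -1.17 for Elf5, -0.07 for Gata3 and 0.12 for Cited1, with limma adjusted p of at least 0.868, so that the sign of Gata3 turned. The Foxa1 difference of 0.11 holds no value of that tumor. Between 9 p75 and 8 p110 tumors 0.504% of all genes and 0 members were called, with 0 members and 13.8% of genes at an unadjusted p under 0.05. These counts read each member from its brightest probe. The middle Prlr probe, p75 minus p110, differed by -1.10 (limma unadjusted p = 0.0477, adjusted p over all probes = 0.37, exact permutation p = 0.0588). By the brightest probes, differences, p75 minus p110, ran from -0.43 for Prlr (distal probe) to 0.72 for Elf5 (limma SE 1.05, adjusted p = 0.813), with -0.30 for Esr1, -0.24 for Cited1, 0.02 for Gata3, 0.10 for Foxa1 and 0.30 for Kit. Without p110-121 they were -0.96 for Prlr, -0.33 for Elf5, -0.44 for Esr1, -0.65 for Cited1, -0.47 for Gata3 and -0.003 for Kit, with limma adjusted p of at least 0.723, so that Elf5, Gata3 and Kit changed sign. High-Wnt minus low-Wnt differences of the members did not differ between p75 and p110 tumors past the threshold (limma interaction, adjusted p of at least 0.49). For Cited1 they were -2.23 and 2.54, with an interaction of -4.77 (limma adjusted p = 0.64). Between high-Wnt and low-Wnt tumors the difference was 0.07 for Gata3 (limma adjusted p = 0.982) and -0.09 for Cited1 (limma adjusted p = 0.99).

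The members Pgr, Greb1 and Tnfsf11 were at or near background in nearly all tumors. Other estrogen and progesterone response genes, some measured in most tumors, are given below. Pgr, the progesterone receptor and an estrogen target, ranged from -0.05 to 0.26 with its coding probe and from -0.08 to 0.19 with the other. Greb1 read -0.20 to 0.17 in all tumors but p75-94, where it was 1.22 and not measured. Tnfsf11 read -0.13 to 0.46, with the highest value in p75-101, the tumor in which it was measured. Since the reference was not above background for Pgr and Greb1 on any array, these ratios set no level.

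All 7 pathway genes of the prolactin receptor were measured in at least 9 tumors, and none passed in any of the 3 comparisons. High-Wnt minus low-Wnt differences were -1.25 for Stat5a (limma adjusted p = 0.208), -1.07 for Stat5b (limma adjusted p = 0.176) and -1.22 for Cish, a Stat5 target and inhibitor (limma adjusted p = 0.496). The feedback inhibitors Socs1 and Socs3 were at 1.46 (limma adjusted p = 0.25) and 1.15 (limma adjusted p = 0.287). The median over the list was -0.39 against 0.02 over all genes. Without the medium-Wnt cluster and the dim tumors p110-225 and p110-374 it was -0.71, with -0.71 for Stat5a, -1.0 for Stat5b, -1.47 for Cish, 1.37 for Socs1 and 0.87 for Socs3. Of 5 partners of RANK and Kit none passed either, with a median of -0.84. Kitl, the ligand of Kit, was -0.66 to -0.10 in high-Wnt and 0.05 to 1.41 in low-Wnt tumors without overlap (difference -0.84, limma adjusted p = 0.191), as for 1.46% of the genes measured in at least 9 tumors. Tnfrsf11a, the receptor of RANKL, differed by -1.01 (limma adjusted p = 0.325) and Id2 by -1.82 (limma adjusted p = 0.234). Tnfrsf11b, the decoy receptor of RANKL, lay the other way at 0.95 (limma adjusted p = 0.496), and Traf6 was at 0.05. Without the medium-Wnt cluster and the dim tumors these were -0.94 for Kitl, -0.74 for Tnfrsf11a, -1.11 for Id2, 1.90 for Tnfrsf11b (limma adjusted p = 0.082) and 0.35 for Traf6. Of 22 other hormone receptors and coregulators 13 were measured in at least 9 tumors, and Esr2 in none. Of 11 estrogen and progesterone response genes 6 were, namely Cxcl12 (17 tumors), Stc2 (16), Tff1 (14), Myb (14), Calca (11) and Xbp1 (11). Agr2 was measured in 8 tumors, Wnt4 in 2, Areg and Tff3 in 1 each and Igfbp4 in 0. Wnt4 is 1 of the 19 genes that drew the Wnt clusters, so its value between them is no independent comparison. With all tumors in the fit, none of either list was called in any comparison. Without p110-121, Vdr, the vitamin D receptor, differed by -1.35 (high-Wnt minus low-Wnt) (limma SE 0.27, adjusted p = 0.046), against an adjusted p of 0.118 with that tumor and 0.0564 without the medium-Wnt cluster, and on these clusters without the dim tumors p110-225 and p110-374 it was -1.04 (limma adjusted p = 0.244). The genes named from these lists were chosen after their values were seen.

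Correlations across tumors were computed between members. Over the 16 tumors without p110-121, 15 pairs of the 6 genes Esr1, Prlr, Gata3, Elf5, Kit and Cited1 were correlated, with p by permutation and Benjamini-Hochberg adjustment over the 15. Each gene was read from its brightest probe, which for Prlr is the distal one, and its other probes were not used. How often pairs of other genes reach such values was not computed, and the tumors differed widely in the strength of the tumor color. Gata3 and Cited1 had Pearson's r of 0.771 (permutation p = 0.00038, adjusted 0.0057, Spearman's rho 0.685), 0.71 among p75 and 0.86 among p110 tumors. Esr1 was correlated with Prlr (r = 0.728, permutation p = 0.00158, adjusted 0.00615, rho 0.75), Cited1 (r = 0.717, permutation p = 0.00092, adjusted 0.00615, rho 0.703) and Gata3 (r = 0.67, permutation p = 0.00568, adjusted 0.0142, rho 0.738). These remained positive in the tumor color alone, at 0.803 for Gata3 with Cited1 and 0.784 to 0.856 for the pairs with Esr1. Without the 2 tumors farthest from the median of Gata3, r was 0.582 for Gata3 with Cited1. Without the 2 farthest from the median of Esr1, it was 0.635 to 0.712 for the pairs with Esr1. Tumors extreme only in the other gene of a pair stayed in. Within the transgenes the pairs with Esr1 had r of 0.814 to 0.865 among p75 and 0.41 to 0.6 among p110 tumors, and Esr1 was measured in 7 tumors. Prlr and Cited1 had r = 0.673 (permutation p = 0.00391, adjusted 0.0117, rho 0.615), 0.824 among p75 and 0.482 among p110 tumors. The permutation p of Spearman's rho in these pairs, adjusted over the 15, was 0.00835 to 0.0321.

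Elf5 and Kit, the progenitor genes, had r = 0.718 (permutation p = 0.00164, adjusted 0.00615, rho 0.776), 0.73 within p75 and 0.778 within p110 tumors, and 0.817 without the 2 tumors farthest from the median of Elf5. In the tumor color alone it was 0.259, so that this relation depended on the ratio to the reference. The permutation p of its rho was 0.00059 (adjusted 0.00835). Prlr and Elf5 had r = 0.547 (permutation p = 0.029, adjusted 0.0622) and rho of 0.579 (permutation p = 0.0205, adjusted 0.044), but r of 0.379 without the 2 farthest tumors and 0.113 in the tumor color alone. Pairs of Gata3 or Cited1 with Elf5 or Kit did not pass, with r of -0.231 for Gata3 with Elf5, -0.222 for Gata3 with Kit, 0.113 for Elf5 with Cited1 and 0.076 for Kit with Cited1. With p110-121 included Gata3 and Elf5 had r = 0.499, which rests on that tumor.

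Genes whose pattern over the 17 tumors was most like a member were sought among 11211 other genes measured in at least 9 tumors and with a value in all 17, by Pearson's r given as a description of values from shared arrays. For Elf5 they were Slc28a3 (0.965, or 0.812 without p110-121), Plet1 (0.959, or 0.795) and Frs2 (0.945, or 0.743). For Kit they were Atp8a2 (0.911), Zfp68 (0.902) and Tcf7l2 (0.866), for Prlr (distal probe) Tlcd4 (0.915), Cmtm8 (0.847) and Mtss1 (0.833). Gata3 was followed by Lpin2 (0.899), Rev3l (0.88) and Tmem230 (0.841), and Cited1 by Dos (0.918), Tspan13 (0.896) and AW112010 (0.891). Without p110-121 these were 0.711 to 0.924. The most alike genes of Elf5 and Gata3 lost most without that tumor.

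Since Elf5, Prlr and Kit were compared by Wnt cluster, their RefSeq promoters in the GRCm38.p6 build were searched for CTTTGA and its reverse complement TCAAAG, letters contained in sites that TCF/LEF factors of the Wnt pathway bind. All 10 members were found in the promoter table. Of the 250 bases upstream of each start, 1 of 2 Elf5 promoters, 1 of 3 Prlr promoters and 0 of 2 Kit promoters held the letters, against 4544 of all 32851 promoters (13.8%). Pgr held them in 1 of 1, and no promoter of the other members did. The Elf5 promoter with a match is chr2:103423818-103424067 (+), before the downstream one of its 2 starts. The match begins 51 bases upstream of that start. The Prlr promoter with a match is chr15:10223656-10223905 (+), before 1 of 3 starts, and the match begins 221 bases upstream of that start. The match is in capitals.
Elf5 promoter: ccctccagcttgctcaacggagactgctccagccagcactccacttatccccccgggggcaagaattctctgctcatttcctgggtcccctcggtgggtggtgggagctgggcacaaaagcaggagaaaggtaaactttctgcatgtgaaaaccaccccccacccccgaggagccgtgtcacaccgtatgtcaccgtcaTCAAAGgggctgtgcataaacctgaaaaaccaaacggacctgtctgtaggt
Prlr promoter: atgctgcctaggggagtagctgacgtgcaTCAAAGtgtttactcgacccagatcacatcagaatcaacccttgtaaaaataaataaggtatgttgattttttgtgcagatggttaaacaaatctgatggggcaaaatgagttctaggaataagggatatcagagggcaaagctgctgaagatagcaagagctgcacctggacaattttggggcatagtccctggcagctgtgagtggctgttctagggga
A match describes these letters only, and neither binding nor use of these start sites in the tumors was measured.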

How the data were processed

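RNA of microdissected cells from 17 tumors was hybridized with reference RNA on 38 2-color Agilent arrays with dyes swapped, on 15 slides scanned on 10 days. Deposited scanner files hold intensity values from Feature Extraction 9.5.3.1, per the file headers, which are not normalized. The deposited table of processed values holds log2 ratios of tumor over reference, which the steps below gave to within 4.98e-08 when outlier spots were kept. The values printed here leave those spots out and differ from the table by up to 0.0503 for Esr1, 0.358 for Foxa1 and less for Gata3, Elf5, Kit, Prlr and Cited1 (0.0357, 0.033, 0.0487, 0.0317 and 0.0323 at most). Values were computed from the scanner files with R 4.3.3 and limma 3.58.1: normexp background correction with an offset of 50, removal of controls and outlier spots (0.545%), loess within arrays, and averaging over spots and then over the arrays of a tumor. A gene with several probes was read from its brightest one. Probe accessions were matched to RefSeq for 22951 of 41174 probes (55.7%), and the others kept the name in the files. Loess and the ratio make values relative to the array's other genes and to the reference, and amplification can favor the ends of transcripts, which bears on probes at different places in a gene.

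Histological type and transgene came from the labels and the Wnt cluster from the study's heat map, not from the labels. Adenosquamous were compared with solid carcinomas, p75 with p110 tumors and high-Wnt with low-Wnt tumors by limma (moderated fits, p adjusted by Benjamini-Hochberg over the 28786 genes, threshold 0.05), and single members by exact two-sided permutation of their mean difference. For correlations, 100000 permutations were drawn. Each tumor is 1 mouse's tumor and 1 replicate. The number of arrays limits precision. The fits were also run on simulated data of independent normal noise, without outlying tumors, dim arrays or scan years. Its outcome is not given here and no result rests on it. All 10 members were named, with the 3 genes of highest correlation to each member measured in at least 9 tumors. The genes named from lists of pathway and cell type markers include many that did not pass the threshold, and were chosen after their values were seen. Members, lists and tests were chosen with earlier results of these data known.

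Alternatives were no background correction, signals processed by Feature Extraction, median centering, the deposited table, a filter for probes measured in at least 5 tumors, averaging the probes of a gene, the tumor color alone, trend and robust moderation, slide or scan day as a random block (statmod 1.5.0), leaving out the 3 dim tumors or each tumor in turn, and transgene or histology as a block or subset. Figures were drawn with matplotlib 3.10.9. Fits without p110-121, and on high-Wnt and low-Wnt tumors without p110-225 and p110-374, were added after seeing the data.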

Additional observations from a re-analysis of the deposited data

Results flagged for a closer look

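A tumor was singled out where its distance to the nearest other tumor of its group was large beside the group's range (Dixon's test). Of 49 groups of values tested, 12 held such a tumor, where chance gives about 1 in 20 of independent groups. The groups are not independent, since each tumor's value was used by histology, by transgene and by Wnt cluster, and p110-121 counts 3 times for Elf5 and p110-143 counts 2 times for Esr1. Elf5 in p110-121 was 0.074, against nearest values of 7.73 among solid carcinomas, 7.48 among p110 tumors and 7.43 among medium-Wnt tumors. Gata3 in p110-121 was -1.07, with 1.40 as the nearest solid carcinoma. This is the tumor with low keratin and high macrophage genes.

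The adenomyoepithelioma p75-90 lay above the other p75 tumors for Esr1 (2.30, nearest 0.85), Foxa1 (2.56, nearest 0.68) and Gata3 (5.03, nearest 3.02). Esr1 in p110-143 was 2.75, with 1.03 as the next value among both solid carcinomas and low-Wnt tumors. Gata3 in p75-47 was 1.21, below the other adenosquamous carcinomas (nearest 2.49). Elf5 in p75-94 was 5.74, below the other high-Wnt tumors (nearest 7.35), and in p110-314 it was 7.91, below the other low-Wnt tumors (nearest 8.95).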

How the results depend on the processing

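No member passed the threshold in any of the 3 comparisons under any alternative. Of 592 differences computed under alternatives for the members other than Pgr, Greb1 and Tnfsf11, 65 changed sign, none of them called. Between high-Wnt and low-Wnt tumors, Elf5 (-2.48 to -0.71), Kit (-2.54 to -0.72), Prlr (-3.38 to -1.14) and Esr1 (-1.52 to -0.40) kept their sign under all 29 alternatives, while Gata3, Cited1 and Foxa1 changed it under 9, 9 and 4. Limma adjusted p over these ranged from 0.0544 to 0.881 for Elf5, 0.131 to 0.628 for Kit and 0.0596 to 0.628 for Prlr. Without the medium-Wnt cluster, p110-225 and p110-374, the limma adjusted p was 0.0986 for Prlr, 0.158 for Elf5 and 0.44 for Kit.

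The count of genes called moved. Between high-Wnt and low-Wnt tumors it was 67, and 0 without background correction and with median centering, 6 with processed signals, 4 in the tumor color alone, 16 with trend and robust moderation, 40 without the 3 dim tumors, 125 with transgene as a block, 10 in p75 and 376 in p110 tumors alone, 143 on these clusters alone, 115 without p110-121, 20 on these clusters alone without p110-225 and p110-374, and 7 (without p110-360) to 93 (without p75-534) with single tumors left out. Between p75 and p110 tumors it was 145, and 218 without background correction, 326 with processed signals, 1204 with median centering, 1654 in the tumor color alone, 86 without the dim tumors, 0 in solid carcinomas alone, 4 with histology as a block, and 46 (without p75-534) to 1084 (without p110-314) with single tumors left out. Between adenosquamous and solid carcinomas it was 0, and 1 with processed signals and 0 to 31 (without p75-101) with single tumors left out. The causes were not tested. No paired analysis was possible because replicate numbers only name the tumors.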
